A study of Mus musculus with 4 samples.

Results

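The Ifi200 family, also called the HIN-200 family, is a group of interferon-inducible genes that lie side by side on mouse chromosome 1. Of the family, 5 genes were examined as members: Ifi202b, Ifi203, Ifi204, Ifi205 and Aim2. They were measured in a study of 2 mouse lines derived from germ cells of the testis, the spermatogonial line GC-1(spg) and the line GC-2(spd)ts. All non-control probes carrying a member's gene name in the scanner files were taken. They came to 8 of the 56605 probes, and they represented 4 of the 5 genes, because no probe carried the name Ifi203. All 8 passed the filter on dim probes. The members were chosen from these same data, because Ifi202b was measured in GC-1 alone. Their differences between the lines are therefore given as a description, with no test.

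Type B spermatogonia transformed by the SV40 large T antigen gave rise to GC-1. For GC-2 the starting cells were spermatocytes, and the transforming genes were the same antigen and a temperature-sensitive mutant of p53. Each group is 1 cell line, measured on 2 one-colour arrays (GC-1, n = 2; GC-2, n = 2), so a difference holds for these lines and not for the cell stages they came from. No treatment is named for either line, and both were grown in the same high-glucose medium with fetal bovine serum and antibiotics, and the labels name no mouse strain. Whether the replicates of a line were separate cultures is not stated in the labels, and p-values here reflect nothing but the variation among these 4 samples, which may be technical. All arrays lay on 1 slide, with each line in a row of its own, so slide position and line cannot be told apart.

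Each array was scaled to its own 75th percentile of processed signal, at 666 and 693 on the arrays of GC-1 and at 416 and 199.9 on those of GC-2. Of the 56605 probes, 57.5% to 64.9% were well above background. The 8 spike-in control probes were higher on the GC-2 arrays by 2.07 ± 0.45 (SD) on the log2 scale after this scaling. Scaled to them instead, any rise in GC-2 of less than that size turns into a fall. Of 20 germ cell markers, 19 had a probe and 11 could be tested, which required a signal well above background on each array of 1 line or more. Dazl, Kit, Mael, Piwil1 and Dmc1, which mark germ cells or meiosis, were above background on no array. The 11 that could be tested were measured on each GC-1 array, and 7 of them on each GC-2 array as well, among them Gfra1, Uchl1 and Zbtb16, while Ddx4 was above background on 1 of the GC-2 arrays.

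HIN-200 proteins carry a DNA-binding HIN domain, and most also carry a pyrin domain through which they join other proteins. Aim2 binds double-stranded DNA in the cytosol and recruits the adaptor Pycard (ASC), which activates caspase-1 and leads to release of interleukins and to pyroptosis. The protein of Ifi202b, p202, has no pyrin domain, binds DNA and inhibits Aim2. The protein of Ifi204, p204, senses DNA upstream of Sting1 and of interferon-beta production. Interferons in turn raise transcription of the family through ISRE and GAS motifs, and the level of Ifi202b is known to differ widely between inbred mouse strains.

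The oligonucleotides on the array show what each measurement rests on, since closely related genes are told apart only by these bases. The following probes are those of the members, with a probe of Ifi206 and a pair of Ifi208 probes that gave unlike answers. They are printed 5′ to 3′ as the scanner files give them, all in lower case.
Aim2 A_66_P134497: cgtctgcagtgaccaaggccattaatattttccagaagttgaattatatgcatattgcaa
Aim2 A_55_P2080130: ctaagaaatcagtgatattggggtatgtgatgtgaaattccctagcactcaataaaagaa
Ifi204 A_55_P2066578: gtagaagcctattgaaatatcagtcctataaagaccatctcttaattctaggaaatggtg
Ifi204 A_55_P1975560: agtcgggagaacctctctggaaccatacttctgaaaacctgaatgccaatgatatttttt
Ifi202b A_55_P2032167: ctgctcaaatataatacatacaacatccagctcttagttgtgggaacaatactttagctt
Ifi202b A_51_P151182: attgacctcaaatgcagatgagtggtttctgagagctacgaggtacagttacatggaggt
Ifi205 A_55_P1962918: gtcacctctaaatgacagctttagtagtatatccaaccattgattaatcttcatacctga
Ifi205 A_52_P435154: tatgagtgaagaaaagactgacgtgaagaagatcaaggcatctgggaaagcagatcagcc
Ifi206 A_55_P2004007: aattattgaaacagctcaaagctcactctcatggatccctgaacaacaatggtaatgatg
Ifi208 A_55_P2036627: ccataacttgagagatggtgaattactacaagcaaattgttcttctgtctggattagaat
Ifi208 A_55_P2001233: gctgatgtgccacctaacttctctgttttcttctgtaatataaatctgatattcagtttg

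On mm9, the build of the scanner files, the Aim2 probes lie at chr1:175385660-175385719 and chr1:175396036-175396095 on the plus strand. The Ifi204 probes lie at chr1:175677552-175677611 and chr1:175677647-175677706, the Ifi202b probes at chr1:175892789-175892848 and chr1:175892953-175893982, and the Ifi205 probes at chr1:175942245-175942304 and chr1:175956747-175956806, all on the minus strand. The second Ifi202b probe has 60 bases but covers 1030 bases of the genome, so it crosses an intron. The transcript accessions of probe A_55_P1962918 belong to both Ifi205 and its relative Ifi211, so its signal is that of either gene or both. No annotation of mm9 was used here, so exons and UTRs are not assigned.

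Ifi202b, the inhibitor without a pyrin domain, was far brighter in GC-1 than in GC-2. Probe A_51_P151182 had a processed signal of 44087 and 58135 in GC-1, against 2.79 and 1.55 in GC-2. Probe A_55_P2032167 had 40146 and 52841 in GC-1, against 3.91 and 2.71 in GC-2. Neither probe was well above background on a GC-2 array, and the groups did not overlap. Measured against the lowest signal well above background on the GC-2 arrays, the level in GC-1 was at least 2627-fold higher for the intron-crossing probe and at least 2390.0-fold higher for the other. On the log2 scale the GC-2 minus GC-1 differences were -13.34 ± 0.25 (SE) and -12.55 ± 0.29 (SE). The part of each below background is not a measured level. With normexp background correction, which adds an offset of 50, they were -8.54 and -8.34. Both probes, which share no bases of the genome, gave the same picture.

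Aim2, the DNA-binding part of the inflammasome that p202 inhibits, was likewise brighter in GC-1. Probe A_55_P2080130 had signals of 1461 and 1618 in GC-1, against 6.68 and 2.34 in GC-2, where it was not well above background. GC-1 exceeded GC-2 on this probe by at least 79.8-fold. Probe A_66_P134497 had 388.7 and 514.8 in GC-1 against 9.48 and 4.003 in GC-2, a log2 difference of -4.95 ± 0.25 (SE), and was well above background on 1 of the 2 GC-2 arrays. With normexp the differences of these probes were -3.53 and -1.78. The groups did not overlap for either probe. The sensor and its inhibitor were thus both bright in GC-1 and both at or near background in GC-2.

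Ifi204, the sensor upstream of Sting1, was bright in both lines. Probe A_55_P1975560 had signals of 38547 and 58628 in GC-1, against 31860 and 17449 in GC-2. After scaling its log2 values overlapped between the lines, 5.86 and 6.40 in GC-1 and 6.26 and 6.45 in GC-2, a difference of 0.22 ± 0.28 (SE). The second probe, A_55_P2066578, had 20188 and 23269 in GC-1 and 9457 and 4870 in GC-2. Its scaled values did not overlap, and GC-2 was lower by a log2 difference of -0.44 ± 0.23 (SE). The 2 probes differed in sign, and scaled to the spike-ins the first became -1.84 and the second -2.51. The bases that open probe A_55_P1975560 nearly repeat those that close A_30_P01024163, a lincRNA probe of the same cluster. That probe had 40363 and 62044 in GC-1 and 28446 and 16154 in GC-2. The accessions of probe A_55_P2066578 matched no RefSeq gene. Whether these signals are those of Ifi204 alone was not tested.

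Ifi205 gave unlike answers from its 2 probes. Probe A_55_P1962918, whose transcripts include those of Ifi211, had signals of 3198 and 3494 in GC-1 and 17304 and 7896 in GC-2. GC-2 was 8.24-fold higher after scaling, a log2 difference of 3.04 ± 0.23 (SE), and the groups did not overlap. Probe A_52_P435154, whose transcripts are those of Ifi205 alone, had 757 and 829 in GC-1 and 599 and 315 in GC-2. Its difference was 0.37 ± 0.23 (SE), with groups that did not overlap, and it became -1.70 when scaled to the spike-ins. The larger difference remained at 0.97 under that scaling.

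Ifi203 was represented by 1 probe, A_52_P134762, that the scanner files describe as an Ifi203 transcript under another name. Its signals were 605 and 1480 in GC-1 and 605 and 251 in GC-2. The GC-1 arrays enclosed the GC-2 arrays on the scaled log2 axis, and the difference was -0.04 ± 0.44 (SE). The spread between the GC-1 arrays was larger than the difference between the lines.

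Over the 8 member probes, 4 were lower and 1 was higher in GC-2 past a limma adjusted p of 0.05 (Benjamini-Hochberg over all 36692 probes), and 3 were not past it. Over all tested probes 21.6% were lower, 24.1% higher and 45.7% either. Because this contrast chose the members, nothing is read from their count. Of all calls, 52.7% were higher in GC-2, a split that moved to 65.3% with normexp background correction, 39.0% with median centring and 5.31% with scaling to the spike-ins. In the authors' deposited table, with 1 log2 value per gene, Ifi202b was 6.25 and 6.59 in GC-1 and -6.67 and -6.47 in GC-2. Aim2 was 0.45 and 0.67 against -5.15 and -5.89 in the authors' deposited table. In the authors' deposited table Ifi204 was 5.66 and 6.003 against 5.69 and 5.67, and Ifi205 was 1.49 and 1.56 against 3.26 and 3.12.

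**Figure D1:**
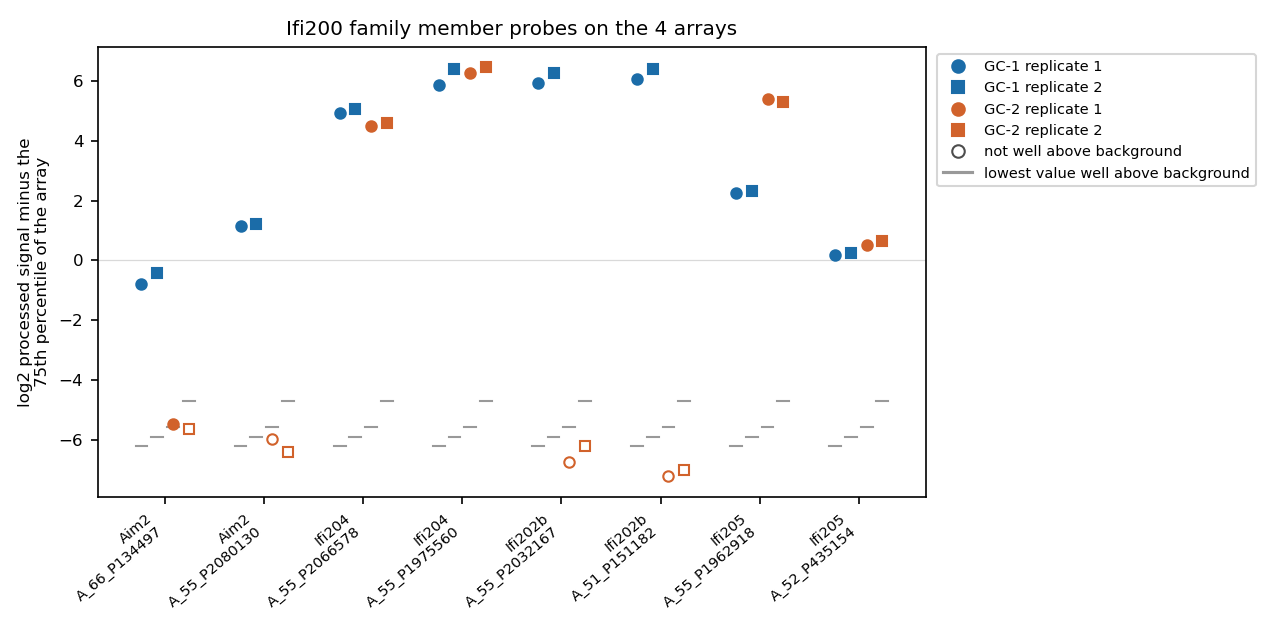
Scaled log2 signal (vertical axis) of the 8 member probes on the 2 GC-1 arrays (blue) and the 2 GC-2 arrays (orange); open symbols are not well above background and grey ticks are each array's lowest value well above background. The Ifi202b probes lie near 6 in GC-1 and under the ticks in GC-2, while the Ifi204 probes lie above 4 on all 4 arrays.

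Within a line, the members can be compared without the contrast that chose them. Between the GC-1 arrays, all 34949 tested probes above background on both had a median replicate difference (replicate 2 minus replicate 1) of -0.02 on the log2 scale, with quartiles of -0.30 and 0.28. The 8 member probes differed by 0.07 to 0.55, all with replicate 2 above replicate 1. The interferon-induced genes outside the family, 40 in all, had a median of 0.69 on the same axis, with quartiles of 0.32 and 1.17. Among the family, Ifi203 was the most unequal at 1.23, above 97.8% of the tested probes, followed by its relative Mndal at 0.80. Both Ifi202b probes differed by 0.34, and Aim2 by 0.09 and 0.35. The GC-1 arrays thus differed more over interferon-induced genes than over all probes, and the 8 member probes differed by less than the median of that list, while the Ifi203 transcript probe differed by more. Between the GC-2 arrays, the median over the interferon-induced genes was 0.01, beside 0.08 over 32059 tested probes.

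The other HIN-200 genes were measured next to the members, to show how the family divides. Of 9 such relatives, 7 had a probe, and Ifi211 and Ifi207 had none of their own. Together with the Ifi203 transcript they made up 12 probes, of which 11 could be tested. By limma, 5 were higher in GC-2, 1 was lower and 5 were not past the threshold, beside 24.1% higher and 21.6% lower over all probes. Each called probe was above background on no array of the line where it was low, so it passed the filter through the other line alone. These calls rest on values below background and are read as a description. The higher probes belong to Ifi206, Ifi213 and Ifi208. With 1 probe per gene, 2 of the 7 relatives were higher and 1 lower, beside 18.8% and 25.2% over all genes tested. The 5 higher probes stayed higher under normexp, median centring, quantile normalization and scaling to the spike-ins, and kept that direction without any 1 array. With probes required to be well above background on all 4 arrays, 5 probes of this set were tested, with 0 higher and 0 lower. The higher probes were not among them and had no result there.

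Ifi206 lies next to Aim2, and its first probe begins 2721 bases beyond the last Aim2 probe. On that probe, A_55_P2004007 (chr1:175398817-175398876, minus strand), the signals were 5.12 and 3.52 in GC-1 and 3556 and 938 in GC-2. GC-1 was not well above background, and GC-2 was at least 421-fold higher (log2 difference 9.99 ± 0.39 SE, limma adjusted p = 0.00015). On the second Ifi206 probe the gap was at least 75.3-fold, in the same direction. These adjacent genes therefore differed between the lines in opposite directions.

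Ifi213 and Ifi208, which the scanner files name Pydc4 and Pydc3, were also brighter in GC-2 on 3 of their 4 tested probes. For Ifi213, probe A_55_P2039230 had 1.99 and 2.45 in GC-1 against 60.2 and 12.8 in GC-2, at least 6.40-fold higher. Its second probe was above background on 1 GC-2 array and was not tested. For Ifi208, probe A_55_P2036627 had 1.82 and 2.37 in GC-1 against 302.9 and 62.4 in GC-2, at least 31.7-fold higher, and probe A_66_P128761 was at least 6.495-fold higher. The third Ifi208 probe, A_55_P2001233, had 2888 and 3444 in GC-1 and 2871 and 924 in GC-2. It overlapped between the lines (log2 difference 0.28 ± 0.29 SE, limma adjusted p = 0.46), so the Ifi208 probes printed above disagreed. All of these GC-2 signals differed between the GC-2 arrays, with replicate 2 below replicate 1 by 0.58 to 1.85 on the log2 scale for the tested Ifi206, Ifi213 and Ifi208 probes. Those differences were below all but 0.19% to 5.16% of the tested probes, and the grouping of these genes was made after their values were seen.

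Under the percentile scaling Ifi214 was the only tested relative lower in GC-2, with signals of 61.6 and 61.3 in GC-1 and 6.94 and 1.57 in GC-2, at least 3.19-fold higher in GC-1 (log2 difference -2.98 ± 0.40 SE, limma adjusted p = 0.0032). It was dim, and with normexp its difference became 0.23. Mndal was bright in both lines, 8181 and 14839 in GC-1 and 12225 and 4771 in GC-2, and did not pass the test (0.71 ± 0.34 SE, limma adjusted p = 0.15). The remaining relatives, Ifi209 at 0.44 ± 0.28 (SE) and the pseudogene Ifi203-ps at -0.04 ± 0.29 (SE), did not pass either. Scaled to the spike-ins, the Mndal value became -1.36 and the Ifi209 value -1.63.

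**Figure D2:**
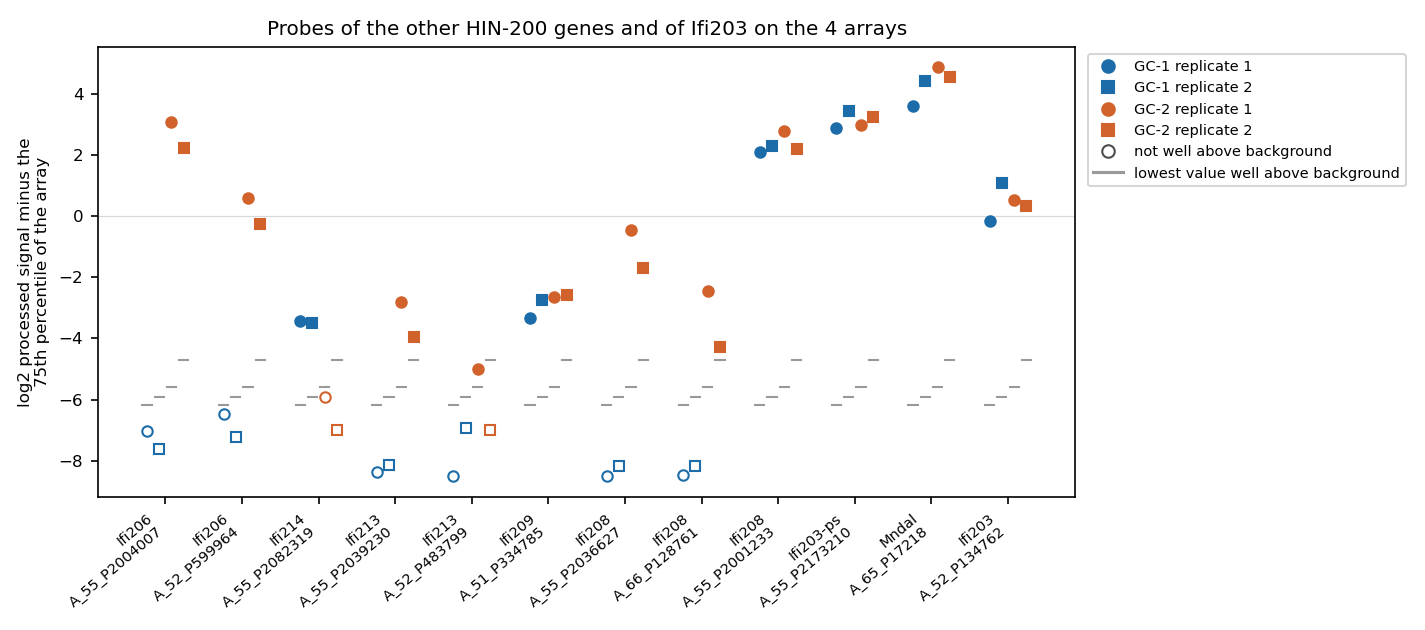
Scaled log2 signal (vertical axis) of the 12 probes of the other HIN-200 genes and of the Ifi203 transcript, drawn as for the members, with GC-1 in blue and GC-2 in orange. Ifi206, Ifi213 and 2 of the 3 Ifi208 probes are above background in GC-2 only, Ifi214 in GC-1 only, and Mndal, Ifi203 and Ifi203-ps are bright in both.

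Along the chromosome, the outermost member probes span 571.147 kb of mm9. The span held 35 probes, of which 32 were tested. Of these, 11 were higher (34.4%) and 6 lower (18.75%) in GC-2, beside 24.1% and 21.6% over all probes. The median log2 difference was 0.42 beside 0.07 over all probes. These counts include the 8 member probes, which this contrast chose. Leaving out the members and the lincRNA probes, 15 were tested, with 8 higher and 1 lower, the probes of the relatives counted again among them. Besides the relatives, the higher ones were the pseudogene Gm18752 (log2 difference 7.03 ± 0.39 SE, limma adjusted p = 0.00028), LOC102642169 (at least 3.56-fold) and a transcript without a gene name (4.91 ± 0.51 SE). Of 9 tested lincRNA probes in the span, 2 were higher and 1 was lower. In the 500 kb on each side, 11 of 31 probes could be tested, with 1 higher and 4 lower (the lower ones were Ackr1 and the olfactory receptors Olfr429, Olfr430 and Olfr231). Both directions thus occurred within the span and outside it.

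**Figure D3:**
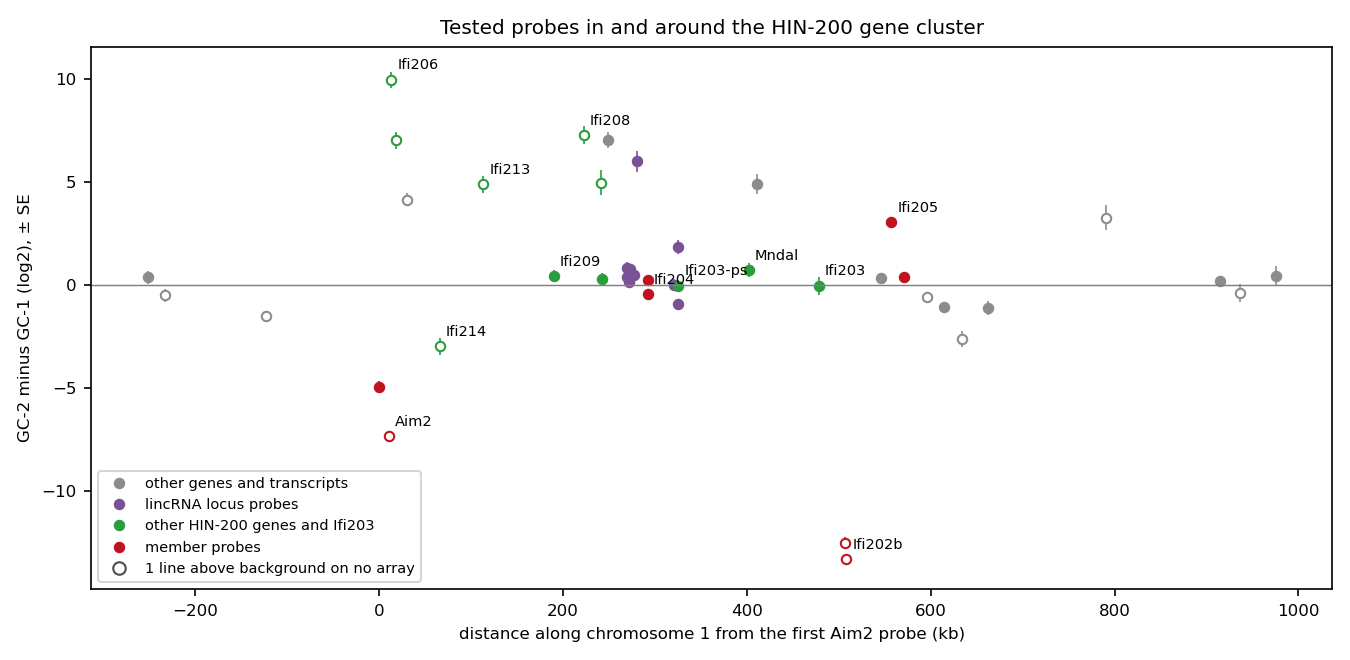
GC-2 minus GC-1 log2 difference with its standard error (vertical axis) of each tested probe against distance in kb from the first Aim2 probe (horizontal axis); open symbols mark probes above background on no array of 1 line. Aim2 and Ifi202b probes lie at -4.95 to -13.34, with the Ifi206 probes, the tested Ifi213 probe and 2 of the 3 Ifi208 probes at 4.89 to 9.99 between them.

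Promoter sequences were read to see which family genes carry interferon-response motifs. The RefSeq promoter table of GRCm38.p6 gives 250 bases before and 50 after each start, and it held 12 family genes with 14 start sites. Ifi204 and Ifi203-ps were not matched. The ISRE was searched as GAAA, any 2 bases and GAAA, the GAS as TTCNNNGAA and the TATA box as TATAAA, each on both strands. An ISRE match lay in 9 of the 12 genes, beside 3.44% of all 32851 promoters of this length. A GAS match lay in 1 of the 12, beside 8.30% of all promoters, and a TATA match in 7 of the 12, beside 13.6%. The TATA matches lay 160 to 212 bases before the start in Ifi206, Ifi208, Ifi213, Ifi214 and Ifi209. In Ifi202b and Ifi205 they lay after the start. These are matches of letters anywhere in the window, and their use as TATA boxes was not tested. The family figures count genes, of which Mndal and Ifi203 have 2 start sites each, while the shares count single promoters. The units are therefore not the same.

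Aim2, Ifi209 and Ifi202b had no full ISRE match in this window. Each held a site with 1 mismatch among the 8 fixed bases, and the share of all promoters with such a site was not counted. The upstream bases of Ifi202b (chr1:173982845-173983094, minus strand) and Aim2 (chr1:173420354-173420603, plus strand), are shown because they lack the match that 9 of the 12 genes hold. Ifi214, above background in GC-1 only, holds one. Capitals mark the GAS match of Ifi202b, whose first base lies 148 bases before the start.
Ifi202b promoter: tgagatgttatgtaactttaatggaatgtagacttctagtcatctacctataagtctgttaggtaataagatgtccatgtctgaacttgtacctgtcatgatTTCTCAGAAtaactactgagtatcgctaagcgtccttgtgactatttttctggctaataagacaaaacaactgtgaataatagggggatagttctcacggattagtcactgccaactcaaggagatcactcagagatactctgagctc
Aim2 promoter: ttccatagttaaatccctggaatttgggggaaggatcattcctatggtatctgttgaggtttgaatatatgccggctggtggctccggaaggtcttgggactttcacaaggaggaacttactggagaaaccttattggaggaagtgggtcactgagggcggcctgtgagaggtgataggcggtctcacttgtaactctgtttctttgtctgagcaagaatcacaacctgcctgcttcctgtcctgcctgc

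The ISRE match lay 40 bases before the start in Ifi206, 58 in Ifi208 and 73 in Ifi213, which had probes higher in GC-2. It lay at a like distance in genes that were not, 35 bases before a start of Ifi203 and 36 and 54 before the starts of Mndal, neither past the threshold, and 79 in Ifi214, which was lower in GC-2. In the windows of 50 bases that follow, capitals mark the match. They lie at chr1:173491329-173491378 (minus strand) for Ifi206, chr1:173673587-173673636 (plus strand) for Ifi208 and chr1:173536007-173536056 (minus strand) for Ifi214. Those of Ifi205 and Ifi211, which share a probe, lie at chr1:174031860-174031909 and chr1:173913054-173913103, both on the minus strand.
Ifi206 window: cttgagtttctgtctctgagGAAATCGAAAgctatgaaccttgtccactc
Ifi208 window: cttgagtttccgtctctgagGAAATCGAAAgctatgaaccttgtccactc
Ifi214 window: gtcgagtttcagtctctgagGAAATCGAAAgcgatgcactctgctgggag
Ifi205 window: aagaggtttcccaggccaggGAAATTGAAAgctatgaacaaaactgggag
Ifi211 window: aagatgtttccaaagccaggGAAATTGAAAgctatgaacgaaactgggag

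Several whole promoters were also close copies of each other. Ifi213 and Ifi208 shared 89.5% of aligned bases, Ifi206 and Ifi208 87.5%, and Mndal and Ifi203 90.7%. The closest pair was Ifi214 and Ifi209 at 95.3%, of which the first holds an ISRE match and the second does not. In the arrays Ifi214 was lower in GC-2, on GC-2 values below background and in a direction that turned with normexp, and Ifi209 did not pass the test. Their differences were not compared with each other, and any part of the promoters in them was not tested. A match is a description of letters, and binding was not measured.

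**Figure D4:**
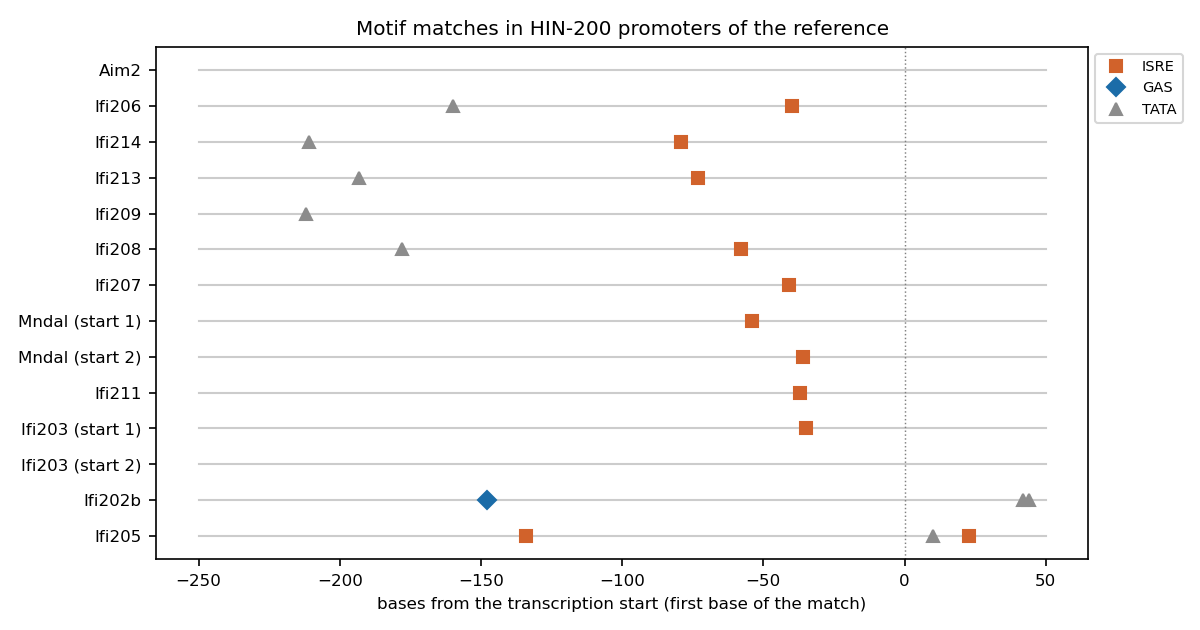
Motif matches (ISRE squares, GAS diamond, TATA triangles) along the promoters of the 12 family genes and their 14 start sites, by bases from the transcription start (horizontal axis, with the start at 0). ISRE matches lie before the start in 9 of the 12 genes, while Aim2, Ifi209 and Ifi202b have none.

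The partners of the family were counted in lists of genes from known biology. Of 27 genes of the inflammasome and pyroptosis, 22 were tested, with 6 higher and 7 lower in GC-2 by limma, beside 18.8% and 25.2% (44.0% in either direction) of the 18080 genes tested. The list's median log2 difference was 0.22 and that of all genes -0.11. Pycard, the adaptor that Aim2 recruits, was higher in GC-2 (1.29 ± 0.29 SE, limma adjusted p = 0.017), with dim signals of 94.3 and 73.2 in GC-1 and 106.0 and 70.1 in GC-2. Its second probe, at -0.61, did not pass. Casp1, the protease it activates, was lower (-0.82 ± 0.23 SE, limma adjusted p = 0.034), with 4249 and 4669 in GC-1 against 1641 and 695 in GC-2. Il18, one of its substrates, was lower (-1.77 ± 0.33 SE, limma adjusted p = 0.0092), and Il1b was above background on no array.

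Gsdmd, the pore protein of pyroptosis, was at -0.01 ± 0.23 (SE) on its brighter probe and higher, at 1.101, on the other, and the related protease gene Casp4 was at 0.20 ± 0.23 (SE); neither passed by the brighter probe. The widest differences were those of Serpinb1a, a protease inhibitor (5.36 ± 0.29 SE), Il18bp, which binds interleukin-18 (2.40 ± 0.28 SE), and Naip2 and P2rx7 (both -3.07). Leaving out 1 array gave 3 to 4 higher and 2 to 6 lower in this list. The Casp1 call was lost without any of the 4 arrays (-0.92 to -0.73), that of Pycard without replicate 2 of either line (1.08 and 1.06) and that of Il18 without GC-1 replicate 2 (-1.60). Scaled to the spike-ins, 1 was higher and 18 lower, and Pycard became -0.78.

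Of 32 genes of cytosolic DNA sensing, all 32 were tested, with 9 higher and 4 lower in GC-2 and a median of 0.17. The shares over all genes tested were 18.8% higher and 25.2% lower, and the median was -0.11. Cgas, the enzyme that makes the messenger for Sting1, was higher (1.70 ± 0.25 SE, limma adjusted p = 0.0042), with signals of 4067 and 3361 in GC-1 and 7165 and 3611 in GC-2. Sting1, the receptor of that messenger, was higher (1.03 ± 0.23 SE, limma adjusted p = 0.017). Dhx9, a helicase, and Zbp1, a sensor of Z-form nucleic acid, were higher at 4.39 ± 0.25 (SE) and 2.04 ± 0.39 (SE), with a second Zbp1 probe at 0.57 that did not pass. Enpp1, which breaks the messenger down, was lower (-3.19 ± 0.34 SE). The kinase gene Tbk1 (0.17), Irf3 (-0.69) and Irf7 (0.84) did not pass by their brightest probes, while the second Irf7 probe was higher in GC-2 (2.68 ± 0.30 SE). Leaving out 1 array gave 4 to 8 higher and 2 to 4 lower, and the Sting1 call was lost without either GC-1 array or without GC-2 replicate 2 (0.93 to 1.05). Scaled to the spike-ins, 1 was higher and 25 lower, with Cgas at -0.37, Sting1 at -1.04 and Zbp1 at -0.03.

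Interferon genes themselves were dim, and their counts stand beside 18.8% higher and 25.2% lower over all genes tested. Of 20 ligands, 17 had a probe and 11 were tested, with 0 higher and 1 lower by limma (Ifnl3, -0.88 ± 0.25 SE, limma adjusted p = 0.035), a call that was lost without any 1 array (-1.05 to -0.72). At an unadjusted p under 0.05, 2 ligands were higher and 2 lower, and with normexp 1 was higher and 0 lower by limma's adjusted p. All 11 were lower when scaled to the spike-ins. Ifnb1 had signals of 89.4 and 638.9 in GC-1, against 49.1 and 11.46 in GC-2. The groups did not overlap, but the GC-1 arrays lay far apart and the difference of -2.10 ± 0.92 (SE) did not pass (limma adjusted p = 0.12). Without GC-1 replicate 1 it passed, at -3.49, and without GC-1 replicate 2 it was -0.71.

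Of 26 genes of interferon receptors and JAK-STAT signalling, all 26 were tested, with 7 higher and 7 lower and a median of 0.12. All genes tested gave 18.8% higher and 25.2% lower, with a median of -0.11. The receptor chains of interferon-gamma went opposite ways, Ifngr1 at -1.07 ± 0.28 (SE) and Ifngr2 at 1.12 ± 0.29 (SE), while those of type I interferon, Ifnar1 (0.26) and Ifnar2 (-0.72), did not pass by the brightest probe. Their other probes disagreed, with 1 Ifnar1 probe lower (-1.80 ± 0.30 SE), 1 higher (1.56 ± 0.30 SE) and 1 not past the threshold (0.44), and the second Ifnar2 probe lower (-1.49 ± 0.30 SE). Both interferon-gamma receptor calls were lost without any 1 array other than GC-1 replicate 2, at -1.18 to -0.82 for Ifngr1 and 0.86 to 1.27 for Ifngr2. Irf8, a transcription factor of myeloid cells, exceeded its GC-1 level in GC-2 by at least 12.9-fold. Cish and Socs3, feedback inhibitors of the pathway, were lower at -2.47 ± 0.32 (SE) and -2.02 ± 0.23 (SE), as was the phosphatase gene Ptpn1 on its brighter probe (-1.57 ± 0.24 SE) but not on the other (-0.27). Stat2 and Irf9, whose proteins bind the ISRE, were at -0.24 ± 0.23 (SE) and -0.14 ± 0.23 (SE) on their brighter probes, and neither passed. The other Stat2 probe was higher in GC-2 (3.79 ± 0.26 SE), so the probes of that gene disagreed. Leaving out 1 array gave 3 to 7 higher and 3 to 5 lower, and scaling to the spike-ins gave 1 higher and 20 lower, with Ifngr2 at -0.95.

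Of 40 interferon-induced genes outside the family, all 40 were tested, with 14 higher and 3 lower in GC-2 and a median of 0.76. Among all genes tested, 18.8% were higher and 25.2% lower, with a median of -0.11. By the brightest probe of each gene, Trim30a (3.17 ± 0.51 SE), Parp12 (2.39 ± 0.40 SE), Gbp2 (2.38 ± 0.53 SE) and Ly6e (2.01 ± 0.55 SE) were the highest of the list. Other probes of a gene could differ, with Parp12 at 2.87 and Trim30a at 1.48 and 2.70, and they were not ranked. The lower genes of the list were Ifi27 (-1.69), Eif2ak2, the kinase that senses double-stranded RNA (-1.60), and Slfn2 (-1.57). The count of higher genes was 6 without GC-1 replicate 1, 17 without GC-1 replicate 2, 6 without GC-2 replicate 1 and 5 without GC-2 replicate 2. The Ly6e call was lost without any 1 array other than GC-1 replicate 2 (1.18 to 2.12), and that of Gbp2 without GC-2 replicate 2 (2.21). Scaled to the spike-ins, 1 was higher and 27 lower, with a median of -1.31.

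**Figure D5:**
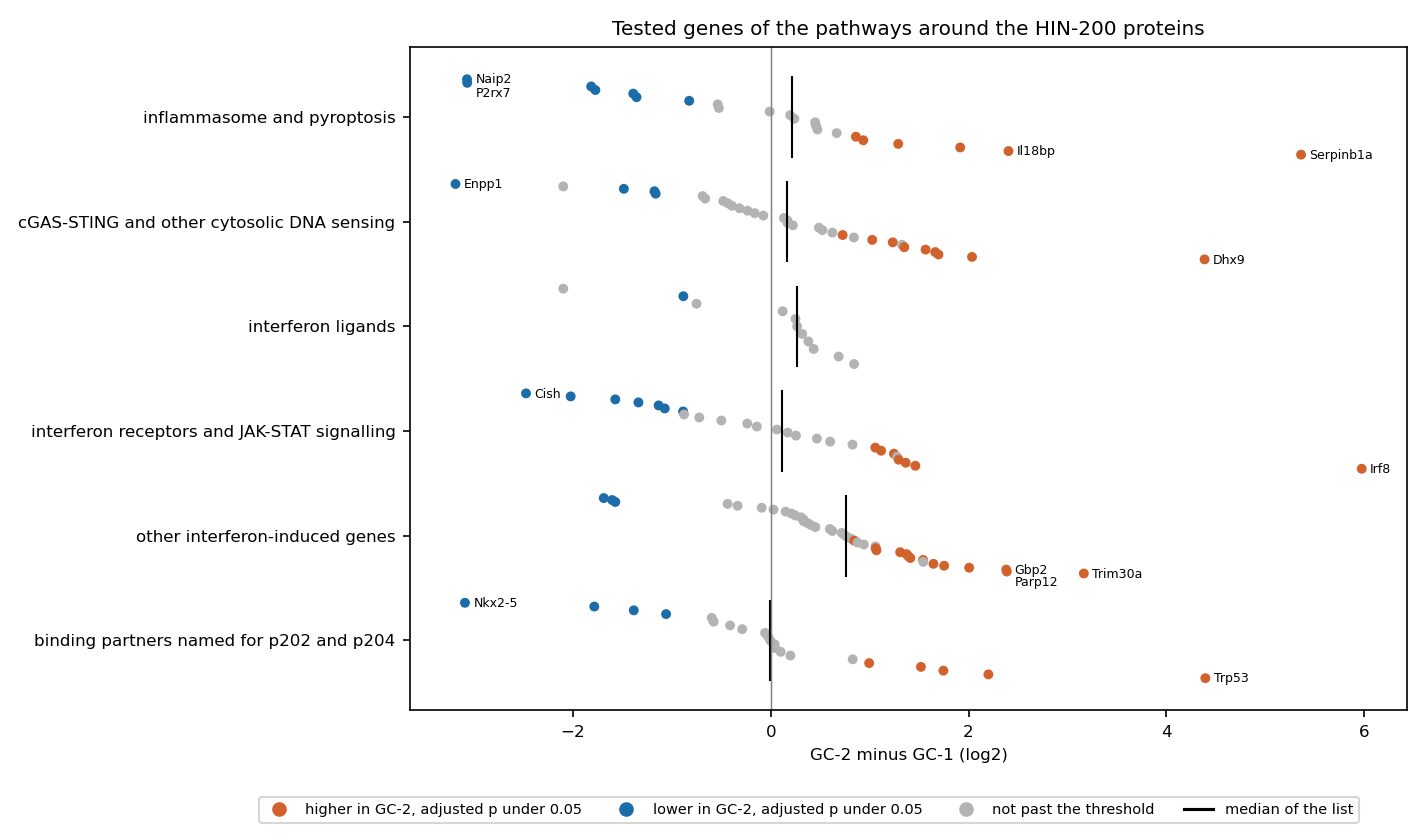
GC-2 minus GC-1 log2 differences (horizontal axis) of the tested genes of 6 lists, 1 point per gene, orange where higher and blue where lower past the adjusted p and grey otherwise; black bars are list medians. The medians lie between 0.00 and 0.76, and single genes reach from -3.19 to 5.98.

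Proteins that p202 and p204 are known to bind were counted as well. Of 21 genes, all were tested, with 5 higher and 4 lower and a median of 0.00, beside 18.8%, 25.2% and -0.11 over all genes tested. Trp53, the gene of p53, was higher in GC-2 (4.39 ± 0.66 SE, limma adjusted p = 0.0046), with 495 and 2113 in GC-1 and 14409 and 5791 in GC-2. Because GC-2 was made with a mutant p53 gene, the cell's own transcript and an introduced one cannot be told apart here. The transcription factor genes Gata4 (2.20 ± 0.26 SE) and Nkx2-5 (-3.09 ± 0.25 SE) went opposite ways, and Id1, a helix-loop-helix inhibitor, was lower (-1.78 ± 0.26 SE). With scaling to the spike-ins, 1 was higher and 17 lower. Leaving out 1 array gave 4 to 5 higher and 2 to 3 lower.

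HIN-200 genes are also expressed in blood cells, so 22 blood cell markers were read. Of these, 15 were tested, with 6 higher and 2 lower in GC-2, beside 18.8% and 25.2% over all genes tested. The count of higher markers was 2 without GC-1 replicate 1, without GC-1 replicate 2 or without GC-2 replicate 2, and 5 without GC-2 replicate 1. With spike-in scaling, 2 were higher and 11 lower. Adgre1, Tyrobp, Spi1, Laptm5, Cd79b and Cd8a were above background on no array. The summed signal of the 15, in multiples of each array's 75th percentile, was 36.8 and 24.8 in GC-1 and 19.0 and 19.8 in GC-2. The 2 lower in GC-2 were Cd68 (-4.78 ± 0.37 SE) and Cd52 (-2.08 ± 0.38 SE), and the direction of Cd52 turned with normexp. Csf1r and Coro1a were higher (3.51 and 3.01), though a second Csf1r probe at 0.45 did not pass. The summed signal of the 11 tested germ cell markers was 23.7 and 11.1 in GC-1 and 4.70 and 4.85 in GC-2. Among them Gfra1 was higher (4.52 ± 0.35 SE) and Id4 lower (-3.00 ± 0.38 SE), but the direction of Id4 turned with normexp. The probes of Uchl1 disagreed, the brighter one lower (-2.20 ± 0.41 SE) and the other higher (1.53 ± 0.42 SE). The part of either marker list in the differences of the members was not tested.

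Genes whose pattern was most like that of Ifi202b were sought among the 803 genes measured on each GC-1 array but not well above background on either GC-2 array. Likeness was the Euclidean distance of the centred log2 values over the 4 arrays, with dim values set to the array's lowest signal well above background. The nearest were Upk3b (distance 1.46), a uroplakin, and Fgf5 (1.58), a growth factor gene, followed by Prr15l (2.07), the kinase gene Dapk2 (2.08) and the chemokine receptor gene Ccr7 (2.21). Upk3b had signals of 17168 and 19936 in GC-1 and 4.44 and 1.59 in GC-2, at least 960.0-fold higher in GC-1. None of the 5 lies on chromosome 1, and with 4 arrays of 2 lines such likeness shows little more than the size of the gap.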

How the data were processed

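Total RNA was reverse transcribed from an oligo-dT primer, and Cy3 was built into the amplified cRNA, per the labels' protocols. Agilent Feature Extraction 11.5.1.1 read the scans, per the file headers. The deposited scanner files give a processed intensity per spot, the raw and local background intensity, and flags of 0 or 1 for spots above background or irregular. The authors' deposited series table holds log2 values, 1 per gene name. For a gene with several probes, the rule by which the authors combined them was not given in the labels or headers.

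Analysed values were log2 processed intensities minus the array's 75th percentile, averaged over a probe's spots without control spots and irregular spots (92 to 224 per array). Saturation was marked on no spot. To be tested, a probe had to be well above background on each array of 1 line or more (36692 probes). GC-2 was compared with GC-1 by limma 3.58.1 in R 4.3.3, two-sided, with Benjamini-Hochberg adjustment over these probes, and the step was tested on simulated data. The tested probe of highest mean stood for a gene. For a probe dim on all arrays of a line, a bound was computed: the bright line's mean over the dim line's detection limit, which per array is the lowest signal well above background, or that of the dim probe if higher. Names came from the RefSeq table of GRCm38.p6, which matched 32989 probes by accession, 10228 by symbol, 519 by synonym, 162 by gene ID and 825 by description, and 11882 kept their own. Promoters were aligned with Biopython 1.88.

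Genes were named by rule: all members and relatives, those within 500 kb of the members, up to 4 genes with the largest change per list and a fixed set of pathway genes; some single-gene results are not reported here. The lower interferon-induced genes were named after their values were seen. The members and lists were chosen with earlier results of these data known. Alternatives were normexp, median centring, quantile normalization, scaling to the spike-ins, a replicate block, other filters, the mean of a gene's probes, the authors' deposited table and leaving out each array.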

Additional observations from a re-analysis of the deposited data

How the results depend on the processing

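The 5 called member probes kept their direction under every scaling and left-out array tried. Because this contrast chose the members, that is a description and not a check of the difference. The Ifi202b and Aim2 probes also passed the filter on dim probes through GC-1 alone. With probes required to be well above background on all 4 arrays, the called Ifi205 probe alone of these 5 had a result, and the Ifi202b and Aim2 probes had none. Beside 8845 higher and 7935 lower probes, and 50 higher and 31 lower genes of the lists, normexp gave 5037 lower probes, the genes of the authors' deposited table were called higher in 4532 cases and lower in 4461, and scaling to the spike-ins gave 1679 higher and 29916 lower probes with 10 higher and 143 lower list genes. Leaving out 1 array gave 5755 to 7401 higher and 4926 to 6167 lower probes, and 24 to 44 higher and 21 to 27 lower list genes, with each gene's brightest probe chosen anew. The cause was not tested. The shared replicate numbers are not known to pair the arrays (correlation of deviations 0.12). With them as a block, 9132 probes were higher and 8200 lower, and 54 and 31 list genes.

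Directions turned for these log2 differences. Scaled to the spike-ins they were -0.034 for Zbp1, -0.062 for Ly6e, -0.37 for Cgas, -0.78 for Pycard, -0.95 for Ifngr2, -1.04 for Sting1, -1.23 for Irf7, -1.36 for Mndal, -1.60 for Jak1, -1.63 for Ifi209, -1.79 for Ifi208 probe A_55_P2001233, -1.81 for Ifnar1, -1.87 for Casp4 and -1.90 for Tbk1. With median centring they were -0.033 for that Ifi208 probe, -0.060 for Ifnar1, -0.12 for Casp4 and -0.15 for Tbk1. With normexp they were 0.23 for Ifi214 and for Id4 and 0.28 for Cd52. With quantile normalization they were 0.15 for Irf9, 0.21 for Ifi203-ps and 0.28 for Gsdmd. The authors' deposited table gave 0.23 for Irf9, 0.50 for Gsdmd and 1.73 for Stat2, and the mean of a gene's probes 0.28, 0.54 and 1.78. Leaving out 1 array turned Gsdmd (-0.068 to 0.047), Ifi203-ps (-0.31 to 0.23), Ifi203 (-0.66 to 0.57), Ifnar1 (-0.028 to 0.54) and that Ifi208 probe (-0.0066 to 0.57). Over all probes the median log2 difference was 0.07, and it moved to 0.50 with normexp, -0.25 with median centring and -2.001 with scaling to the spike-ins. Signals near background limit the Ifi202b and Aim2 values in GC-2. For the Ifi202b probes and Aim2 probe A_55_P2080130 only a bound is known. Aim2 probe A_66_P134497 was well above background on 1 GC-2 array, so its difference rests in part on a value below background.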
